A study of Mus musculus with 6 samples.

Results

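The constitutive proteasome was examined in mouse renal tubular epithelial cells (mTECs) through the transcripts of its subunits, activators and assembly factors. The genes were chosen by symbol, as every row whose GENCODE M21 symbol runs from Psma to Psmg and is followed by a digit, apart from the inducible catalytic subunits Psmb8, Psmb9 and Psmb10. This gave 47 of the 22442 genes in the table. They comprised 16 subunits of the 20S core, 17 of the 19S cap, 5 activators, 7 assembly factors, the regulator Psmf1, and Psmc3ip. The last is a meiotic recombination factor that binds a cap ATPase and is no subunit, and it was kept because the symbol rule takes it. The rule itself uses no measured value, although the set was proposed with earlier results of these data known.

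The study asked what Stat3, a transcription factor of cytokine signalling, controls in injured tubular cells. All 6 poly(A) RNA libraries came from mTECs kept for 24 h in 20 μg/ml of LPS, the lipopolysaccharide of bacterial walls. In the group LPS the 3 samples had been transfected with a negative control, and in the group LPSKD the other 3 had received, by the labels, an siRNA against Stat3. There was no library without LPS, so the effect of LPS itself could not be examined. The labels describe magnetically sorted cells, whereas the study's methods describe an immortalised line, and its reagent list gives an shRNA rather than an siRNA for mouse Stat3. The labels do not say whether the 3 libraries of a group came from separate cultures, so that each p-value measures only the spread between these libraries.

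Values are FPKM, fragments scaled to coding length and to the total of the library, so that levels may be compared between genes. The depth, inferred from the FPKM values as described below, was even, with 24084827 to 25422171 fragments per library. All fragment counts given here were inferred in this way. No library was a repeat of another, since the chi-square per gene between replicates was 4.11 to 11.1, where sampling alone gives about 1. Stat3, the targeted gene, had an FPKM of 34.6, 31.4 and 35.2 in the libraries labelled LPS and of 30.8, 35.2 and 34.3 in the libraries labelled LPSKD. The groups overlapped, and the log2 fold change was −0.01 (SE 0.07, 95% interval −0.17 to 0.14, adjusted p = 0.944 from limma). The transcript level thus shows no sign of the silencing that the label states. The study reports a Stat3 knockdown in mTECs by real-time PCR and western blot, without saying whether those cells were the ones sequenced. LPSKD is used below as the name of the libraries labelled so. Among 9 tubule markers, Cdh16, Pax2 and Pax8 rose and Krt18 fell in the libraries labelled LPSKD, while the summed FPKM of the markers was 3814 to 3889 in LPS and 3799 to 3853 in LPSKD. Immune cell markers summed to 58.6 to 65.1 and 61.6 to 74.9 over 8 genes. All of them except Csf1r had a lower mean in LPSKD. Csf1r was called and higher in LPSKD (log2 fold change 0.45). The other tested ones, Cd68, Adgre1, Ptprc and Lyz2, were not called, at −0.30, −0.39, −0.18 and −0.04. Of these Cd68 alone had separate groups (adjusted p = 0.197 from limma). Itgam and Cd3e were at 0 in at least 1 library. Cd79a, with 1 to 6 fragments per library and not tested, had separate groups on the lower side. Fibroblast markers summed to 12.5 to 15.8 and 7.33 to 16.7 over 5 genes and endothelial markers to 2.37 to 4.29 and 2.7 to 4.44 over 4 genes, with none called. The part of other cells in the values below was not tested, and in bulk RNA a change in cell numbers and a change in RNA per cell cannot be told apart.

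The proteasome degrades proteins that carry ubiquitin. Its 20S core is a barrel of outer alpha rings and inner beta rings, with the catalytic sites on Psmb5, Psmb6 and Psmb7, and its 19S cap recognises, unfolds and feeds in the substrate. Interferons induce alternative catalytic subunits and the activator Psme1 with Psme2, which replace the constitutive sites and compete with the cap. In tubular cells, as elsewhere, the proteasome clears damaged proteins and shapes inflammatory signalling, among others through the degradation of the inhibitor of NF-κB.

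A pair of near-identical genes and 2 promoters bear on the values that follow. Psme2, on chromosome 14 from 55587441 to 55591113, and Psme2b, on chromosome 11 from 48945354 to 48946190, both on the minus strand of GRCm38, have coding sequences of 717 bases that were identical at 712 positions (99.3%). Psme2b consists of 1 coding segment in GENCODE M21. Coding bases 484 to 543 of both are shown because 3 of the 5 differences lie in these 60 bases, and capitals mark them.
Psme2: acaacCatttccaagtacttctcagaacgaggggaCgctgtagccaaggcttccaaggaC
Psme2b: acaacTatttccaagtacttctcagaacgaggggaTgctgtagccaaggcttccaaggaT
A fragment that spans none of these differences fits either gene, which limits how the levels of the pair can be read.

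The promoter of Psmd5 is shown because Psmd5 was the only gene of the set with a called difference, and that of Psme1 because it belongs to the activators that interferons induce. Both were taken from RefSeq on GRCm38.p6 and run from 250 bases before to 50 bases after the annotated start. Psmd5 lies on the minus strand (chr2:34870913-34871212) and Psme1 on the plus strand (chr14:55578244-55578543). Capitals mark motif matches, which in Psmd5 are 1 antioxidant response element core (TGANNNNGC, read on the other strand) followed by 2 copies of the palindrome TCTCGCGAGA. In Psme1 they mark 1 interferon-stimulated response element (GAAANNGAAA, read on the other strand).
Psmd5: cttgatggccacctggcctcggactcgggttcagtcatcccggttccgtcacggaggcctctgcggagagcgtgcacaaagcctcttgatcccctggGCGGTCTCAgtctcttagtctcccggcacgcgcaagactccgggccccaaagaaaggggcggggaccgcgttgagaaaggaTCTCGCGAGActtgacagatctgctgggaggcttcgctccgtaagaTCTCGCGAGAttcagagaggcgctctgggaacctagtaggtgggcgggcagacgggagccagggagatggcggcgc
Psme1: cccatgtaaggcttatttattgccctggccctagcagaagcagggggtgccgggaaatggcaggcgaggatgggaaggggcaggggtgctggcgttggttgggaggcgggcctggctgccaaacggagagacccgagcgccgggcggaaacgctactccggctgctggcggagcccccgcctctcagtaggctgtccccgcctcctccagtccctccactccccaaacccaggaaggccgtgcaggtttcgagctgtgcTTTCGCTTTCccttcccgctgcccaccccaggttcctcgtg
Of the 47 genes, 39 had a promoter in RefSeq, and 27025 genes served as background. Matches were sought on both strands. The antioxidant response element core, the type of site bound by Nfe2l1 and Nfe2l2, occurred in 22 of the 39 (56.4%) and in 45% of all promoters. The interferon-stimulated response element occurred in 5 of 39 (12.8%, against 3.99% of all), namely Psmb3, Psmd4, Psmd9, Psme1 and Psmg4. The gamma-activated site TTCNNNGAA, the palindrome to which STAT dimers bind, occurred in Psmd2 and Psmg1 (5.13%, against 9.55% of all). CCAAT occurred in 14 of 39 (35.9%, against 41.1%), TATAAA in 3 (7.69%, against 15.7%) and TCTCGCGAGA in Psmd5 alone (2.56%, against 0.525%). The last motif was added after the Psmd5 sequence had been seen. A match says only that these letters are in the window.

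Nearly all of the proteasome was expressed at closely similar levels in both groups. Of the 47 genes, 45 had a mean FPKM of at least 0.5 and were tested, with 95 to 18534 fragments per gene and library. The other two, Psma8, an alpha subunit of the testis, and Psmb11, a catalytic subunit of the thymic cortex, were at 0 in all 6 libraries. Of the 45, 1 (Psmd5) passed an adjusted p of 0.05 and it was higher in LPSKD, which is 2.22% of the set, while 3.23% of all 11723 tested genes passed (1.57% higher and 1.66% lower). At an unadjusted p of 0.05, 8 of 45 passed (17.8%, against 17.6% of all tested genes). These were Psmd5, Psmd13, Psma7, Psmd7, Psmb3 and Psmd10 on the higher side, where 8.65% of all tested genes stood, and Psme2b and Psme2 on the lower side, where 8.91% stood. The 2 groups of libraries did not overlap in 11 of 45 genes (24.4%, against 23.8% of all tested genes). The 3 shares lay near or below those of all tested genes, and below those of the 3123 tested genes averaging 50 FPKM or more, of which 5.51% were called, 24.6% had an unadjusted p under 0.05 and 30.1% had separate groups.

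The intervals of the differences were narrow. Their half-widths ran from 0.07 to 0.33 on the log2 scale, with a median of 0.10, and no bound lay outside 0.74-fold to 1.33-fold. For 41 of the 45 genes (91.1%) the whole 95% interval of limma lay within 1.25-fold in either direction. This was so for 59.4% of all tested genes and for 91.6% of the 3123 more abundant ones, the more comparable group, since the median gene of the set had a mean FPKM of 174. The median coefficient of variation between replicates was 4.07% over the set, 5.97% over all tested genes and 3.51% over those 3123. The log2 fold change was above 0 in 33 of 45 genes (73.3%), against 47.5% of all tested genes and 55.2% of those with a mean FPKM of at least 50.

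**Figure D1:**
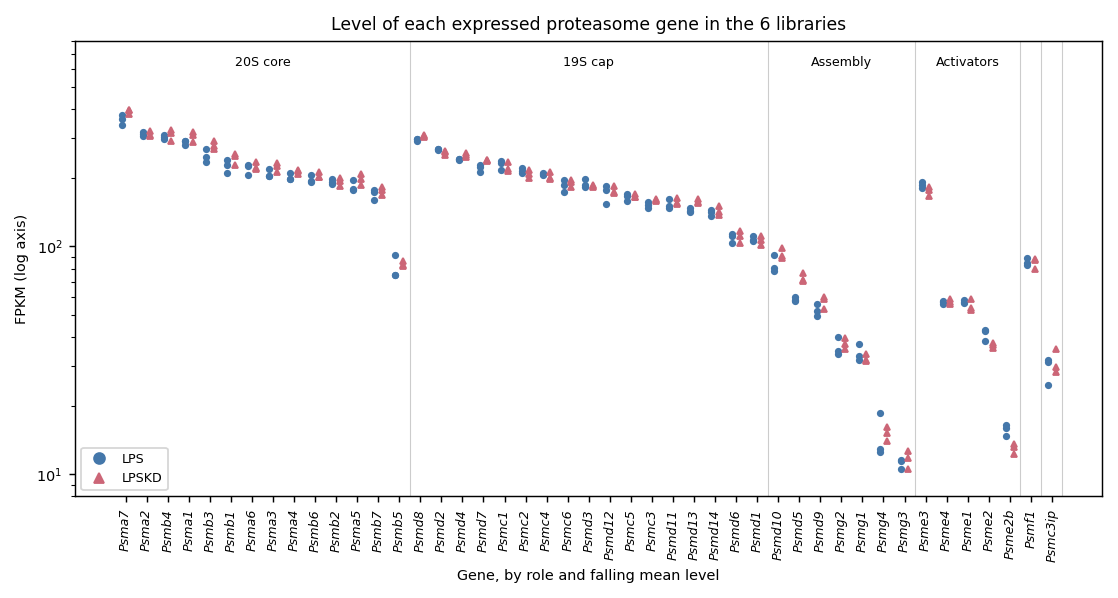
FPKM (log axis) of the 45 proteasome genes above 0 in each of the 6 libraries, by role and falling mean level, with circles for the libraries labelled LPS and triangles for those labelled LPSKD. Means run from 11.4 for Psmg3 to 377 for Psma7, and in most genes the circles and triangles lie over each other.

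The 20S core showed no called difference between the groups, and its 14 expressed subunits all had a small positive log2 fold change, from 0.00 to 0.15 with a median of 0.07 (1.05-fold). The median over all tested genes was −0.01. The subunit with the highest level was Psma7, an alpha subunit, with 342, 376 and 361 FPKM in LPS and 397, 399 and 383 in LPSKD. Its groups did not overlap, and the log2 fold change of 0.13 (SE 0.04) had an adjusted p of 0.156 from limma. Psmb3, a non-catalytic beta subunit, had the highest fold change of the core, with 236, 267 and 246 FPKM in LPS and 268, 289 and 275 in LPSKD. The lowest library of LPSKD was thus just above the highest of LPS, at a log2 fold change of 0.15 (SE 0.05, adjusted p = 0.183 from limma). At the other end, Psma2 had 305, 317 and 311 FPKM against 305, 320 and 309, and Psmb2 had 188, 192 and 197 against 185, 194 and 199. These subunits were level between the groups, with log2 fold changes of 0.00 and 95% intervals of −0.08 to 0.08 and −0.09 to 0.09.

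The catalytic subunits lay between these extremes. Psmb5, which carries the chymotrypsin-like site, had an FPKM of 74.9, 91.9 and 75.1 in LPS and of 86.4, 81.9 and 83 in LPSKD, with replicate 2 of LPS above every other library. Psmb6, with the caspase-like site, had 194, 206 and 192 FPKM against 201, 212 and 202. Psmb7, with the trypsin-like site, had 160, 177 and 173 FPKM against 177, 182 and 168. The groups overlapped in all 3 genes, and the log2 fold changes were 0.06 (95% interval −0.12 to 0.24), 0.06 (−0.04 to 0.15) and 0.05 (−0.07 to 0.16). Among the other alpha subunits, the mean FPKM (SD, n = 3) was 287 ± 5.82 in LPS and 305 ± 15.2 in LPSKD for Psma1, 208 ± 8.34 and 223 ± 10.1 for Psma3, and 202 ± 7.18 and 213 ± 4.48 for Psma4. It was 184 ± 10.1 and 196 ± 10.8 for Psma5 and 220 ± 12.9 and 224 ± 8.19 for Psma6. Among the structural beta subunits it was 226 ± 15.2 and 243 ± 14.6 for Psmb1 and 301 ± 6.56 and 309 ± 17.2 for Psmb4. In none of these 7 were the groups separate.

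Since each core barrel holds its subunits in equal numbers, the order of their transcript levels is of interest. The mean FPKM over the 6 libraries fell from Psma7 (377) through Psma2 (311), Psmb4 (305), Psma1 (296), Psmb3 (264), Psmb1 (235), Psma6 (222), Psma3 (216), Psma4 (207), Psmb6 (201), Psmb2 (193), Psma5 (190) and Psmb7 (173) to Psmb5 (82.2). Of the 13 neighbouring pairs in this order, 11 had values that overlapped across the libraries. The exceptions were Psma7 above Psma2 and Psmb7 above Psmb5, whose ranges stood clear of each other. Within single libraries the order was steadier, and Psma7, Psmb3, Psmb1, Psmb7 and Psmb5 each held the same rank in all 6. From top to bottom the levels spanned 4.58-fold. Psmb5 shares 81% of its stretches of 31 coding bases with transcripts of other genes, as do Psma3 (85.2%), Psma5 (86.4%) and Psmb3 (84.1%), mostly annotated pseudogenes, and how the authors counted such fragments is not given in the sources used here.

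The small positive shift of the core did not divide cleanly by group. The median deviation of the 14 genes from their own means was −0.094, 0.026 and −0.044 (log2) in the 3 LPS libraries and 0.013, 0.079 and 0.013 in the LPSKD libraries, so that replicate 2 of LPS lay above 2 of the 3 LPSKD libraries. Replicate 1 of LPS was the lowest library for the core and for the cap. The 1398 genes with a coding sequence under 1000 bases and a mean FPKM of at least 50 were also lowest in replicate 1 of LPS and highest in replicate 2 of LPSKD, with deviations of −0.057, 0.023 and −0.012 in LPS and of 0.027, 0.029 and −0.003 in LPSKD. All core subunits have coding sequences of that length. The 28 short genes of the set had a median log2 fold change of 0.06, against 0.03 for those 1398. The 17 longer ones had 0.02, against −0.00 for the 1722 tested genes of 1000 coding bases or more at that level. What part the coding length had in the shift was not tested. With quantile normalization the core lost some of its uniform sign, with Psma2, Psmb2 and Psmb4 then slightly below 0, and without replicate 1 of LPS 27 rather than 33 genes of the whole set were above 0. The median over the set, 0.05, was 0.01 without replicate 1 of LPS and 0.02 without replicate 2 of LPSKD or with quantile normalization.

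**Figure D2:**
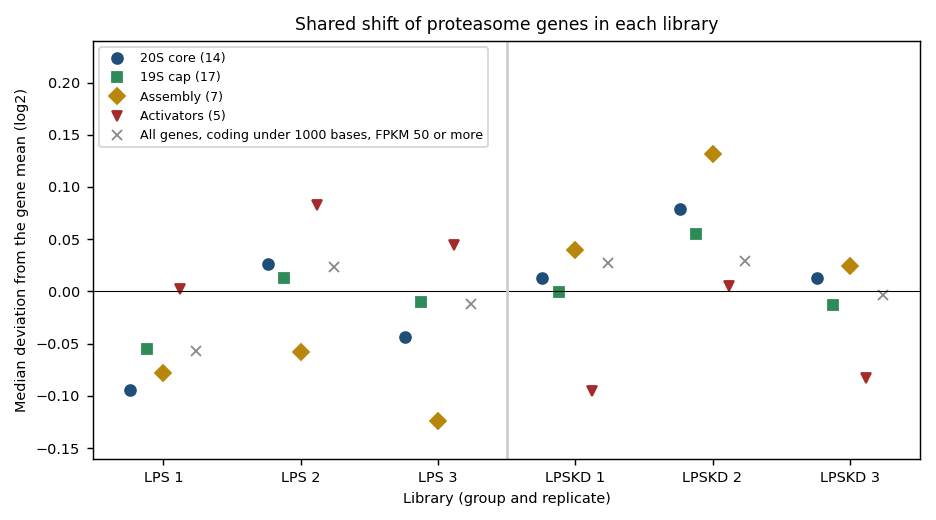
Median deviation (log2) of the genes of each role from their own mean over the 6 libraries, with crosses for the 1398 tested genes of short coding sequence and a mean FPKM of at least 50. The core lies at −0.094 in replicate 1 of LPS and at 0.079 in replicate 2 of LPSKD, and the crosses lie at −0.057 and 0.029 in these libraries.

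The 17 subunits of the 19S cap taken by the symbol rule were as even as the core. The lid subunit Sem1 and the ubiquitin receptor Adrm1 carry other symbols and are not among them. Their log2 fold changes were 0.25 (95% interval −0.03 to 0.52) and 0.08 (−0.02 to 0.17), with values given further below. None of the 17 was called, and their log2 fold changes ran from −0.05 to 0.13 with a median of 0.03. Of these, 11 were above 0 and 6 below. All 17 intervals lay within 1.25-fold, and the mean levels spanned 2.79-fold, from 107 FPKM for Psmd1 to 299 for Psmd8. The groups did not overlap in 6 of the 17, of which 5 were higher and 1 lower in LPSKD. Over all tested genes 10.6% were separate on the higher and 13.2% on the lower side, and over those averaging 50 FPKM or more 16.3% and 13.8%. Psmd13, a lid subunit, had the highest fold change of the 17. It had 143, 142 and 147 FPKM in LPS and 157, 161 and 155 in LPSKD. Its groups were well apart, but the log2 fold change of 0.13 (SE 0.03, 95% interval 0.06 to 0.21) had an adjusted p of 0.0843 from limma, the lowest of the uncalled genes. Psmd2, a large scaffold of the base, had the lowest fold change, with 269, 268 and 264 FPKM against 251, 262 and 260. The groups were separate by a narrow margin, at a log2 fold change of −0.05 (SE 0.03, adjusted p = 0.462 from limma).

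The ATPases, which unfold the substrate and thread it into the core, were balanced around 0. Their mean FPKM (SD, n = 3) was 229 ± 10.3 in LPS and 223 ± 10.4 in LPSKD for Psmc1, 215 ± 5.41 and 208 ± 8.64 for Psmc2, and 152 ± 4.43 and 160 ± 1.76 for Psmc3. It was 208 ± 2.71 and 203 ± 7.95 for Psmc4, 165 ± 6.02 and 167 ± 2.92 for Psmc5, and 185 ± 11.3 and 190 ± 6.54 for Psmc6. Psmc3 alone had separate groups, and part of its coding sequence overlaps Slc39a13 on the other strand. Psmd1, the second scaffold of the base, had a mean of 108 ± 2.53 and 107 ± 4.78 FPKM, and Psmd4, a ubiquitin receptor, 241 ± 1.35 and 252 ± 4.91. In the lid, Psmd14, the deubiquitinase that removes ubiquitin chains as substrates enter, had 140 ± 4.45 and 143 ± 6.58 FPKM, and its partner Psmd7 had 221 ± 8.15 and 239 ± 0.956. Psmd7 was among the genes with separate groups (log2 fold change 0.11, adjusted p = 0.167 from limma), as were Psmd4 and Psmd8. The other lid subunits had 189 ± 7.93 and 185 ± 1.7 FPKM for Psmd3, 110 ± 4.77 and 111 ± 6.33 for Psmd6, 293 ± 2.43 and 304 ± 3.72 for Psmd8, 153 ± 6.47 and 157 ± 5.25 for Psmd11, and 172 ± 15.8 and 177 ± 7.34 for Psmd12. None of these lid genes differed by more than 1.08-fold between the group means except Psmd13.

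**Figure D3:**
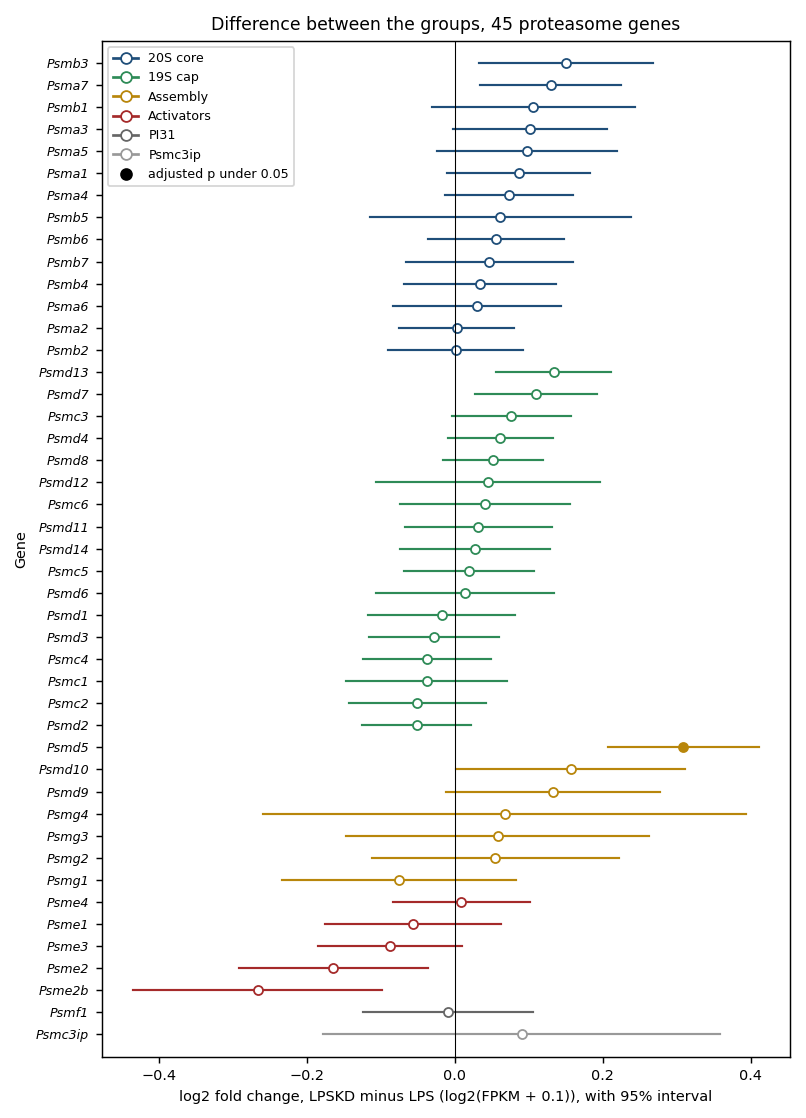
Log2 fold change, LPSKD minus LPS on the log2(FPKM + 0.1) scale, of the 45 tested genes with 95% intervals from limma, by role. The filled point is Psmd5 (0.31), the only gene with an adjusted p under 0.05, and the core points all lie between 0.00 and 0.15.

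Assembly factors held the only called gene. Psmd5, a chaperone that binds the ATPases while the base of the cap is built, had an FPKM of 58.2, 59.9 and 57.8 in LPS and of 71.2, 76.3 and 70.7 in LPSKD, from 2137 to 2780 fragments per library. Every LPSKD library lay above every LPS library. The mean rose from 58.7 ± 1.12 to 72.7 ± 3.13 (1.24-fold, 95% interval 1.15 to 1.33), with a log2 fold change of 0.31 (SE 0.04, adjusted p = 0.00849 from limma). None of its 31-base coding stretches occurs in another gene on the same strand. The call was lost in 2 of 16 alternatives, at an adjusted p of 0.0613 without the trend of the variance and of 0.0523 without replicate 3 of LPS, while the log2 fold change stayed between 0.27 and 0.33 with any 1 library left out. The ATPases to which Psmd5 binds gave no called difference.

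The other chaperones of the base were also higher in mean but did not pass. Psmd10 (gankyrin) had 80.1, 91.8 and 78 FPKM in LPS and 90.4, 98.5 and 89.3 in LPSKD, where replicate 2 of LPS lay within the range of LPSKD (log2 fold change 0.16, SE 0.07, adjusted p = 0.28 from limma). Psmd9 had 51.9, 49.4 and 55.8 FPKM against 60.2, 58.7 and 53.3, and its groups overlapped (0.13, SE 0.06, adjusted p = 0.325 from limma). The chaperones of the core, Psmg1 to Psmg4, were, with Psme2b and Psmc3ip, the least abundant of the expressed genes and had wide intervals. Psmg1, which pairs with Psmg2 to build the alpha ring, had 32.9, 31.8 and 37.5 FPKM against 31.4, 33.6 and 31.9. Psmg2 had 34.8, 40 and 33.8 FPKM against 35.6, 39.5 and 37.4. The second pair, Psmg3 and Psmg4, rested on 95 to 170 fragments per library, with 11.4, 11.5 and 10.6 FPKM against 10.5, 12.7 and 11.8 for Psmg3. For Psmg4 the values were 18.5, 12.5 and 12.9 FPKM against 15.2, 16.2 and 14, with replicate 1 of LPS the highest of the 6. The groups overlapped in all 4, at log2 fold changes of −0.08, 0.05, 0.06 and 0.07. The interval was widest for Psmg4 (−0.26 to 0.39), where the coefficient of variation was 22.7% in LPS and 7.04% in LPSKD, and the log2 fold change was 0.25 without replicate 1 of LPS. Psmg3 overlaps Gm26938 on the same strand and shares 55.4% of its coding stretches with other genes. Over the 7 assembly factors the median log2 fold change was 0.07, between 0.02 and 0.13 with any 1 library left out.

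**Figure D4:**
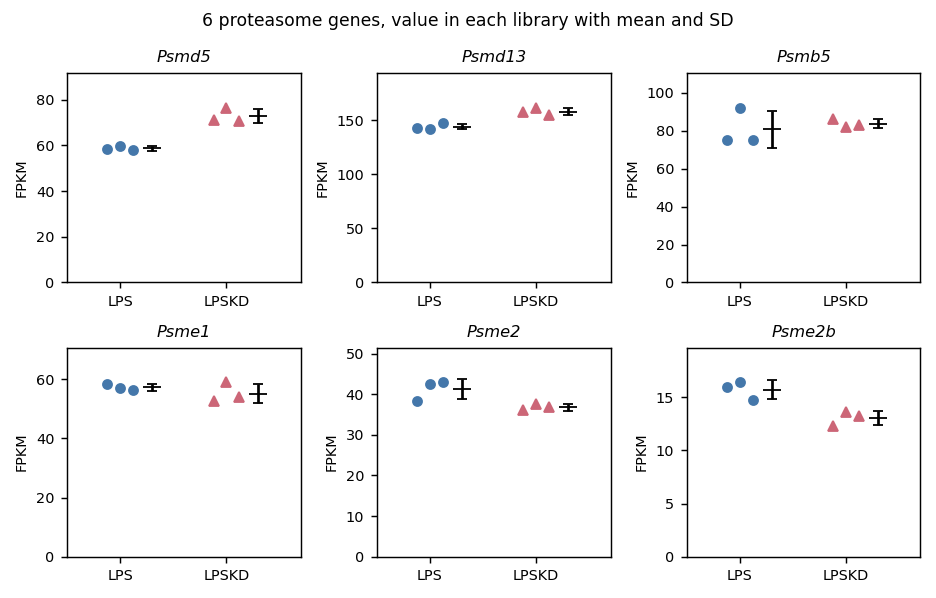
FPKM of Psmd5, Psmd13, Psmb5, Psme1, Psme2 and Psme2b in each of the 3 libraries per group, on axes that start at 0, with the group mean and SD beside the points. The LPSKD points lie above the LPS points for Psmd5 and Psmd13 and below them for Psme2 and Psme2b, and overlap them for Psmb5 and Psme1.

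The activators, rings that open the core in place of the cap, held no called gene. Of the 5 genes, 4 had a log2 fold change below 0, among them the near copies Psme2 and Psme2b. Below 0 were also 6154 of all 11723 tested genes and 1399 of the 3123 averaging 50 FPKM or more. The median of the activators was −0.09 (−0.12 without replicate 2 and −0.05 without replicate 3 of LPSKD). Psme2 had an FPKM of 38.4, 42.6 and 42.9 in LPS and of 36, 37.7 and 36.8 in LPSKD. Its near copy Psme2b had 16, 16.4 and 14.7 FPKM against 12.3, 13.6 and 13.2. In both, every LPSKD library lay below every LPS library, with log2 fold changes of −0.16 (SE 0.06, adjusted p = 0.178 from limma) and −0.27 (SE 0.07, adjusted p = 0.108 from limma). Because the sequences shown above differ at so few positions, the split between them is uncertain and they are not 2 independent observations. Their sum, which hardly depends on the split, was 54.4, 58.9 and 57.6 FPKM in LPS and 48.3, 51.2 and 50 in LPSKD, from 886 to 1077 fragments. The difference was −0.19 (log2). As both genes had separate groups on the same side, their sum had to separate as well. The exact two-sided permutation test could therefore give only p = 0.1, the smallest that 3 libraries against 3 can give. It adds nothing to the values of the 2 genes. Psme2b made up 25.5% to 29.4% of the sum.

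Psme1, which forms one ring with Psme2, had 58.5, 57 and 56.3 FPKM in LPS and 52.6, 58.9 and 53.9 in LPSKD. Replicate 2 of LPSKD was the highest of all 6, and the log2 fold change was −0.06 (SE 0.05, 95% interval −0.18 to 0.06). Psme3, the nuclear activator that acts without ubiquitin, was the most abundant of them, with 181, 192 and 187 FPKM against 177, 183 and 167. Its groups overlapped, at −0.09 (SE 0.04, adjusted p = 0.337 from limma). Psme4, an activator linked to histone degradation, had 56, 57.4 and 57.1 FPKM against 55.8, 57.2 and 58.6 and was level (0.01, 95% interval −0.08 to 0.10). Psmf1 (PI31), a regulator that binds the core, had 89.1, 84.7 and 83.2 FPKM against 87.5, 79.9 and 88.1, also with overlapping groups (−0.01, 95% interval −0.12 to 0.11). Psmc3ip, the gene taken by its symbol only, had a mean of 29.2 ± 3.99 and 31.1 ± 3.96 FPKM.

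Whether the balance of constitutive and inducible parts differed was examined with 4 ratios within each library, using exact two-sided permutation tests that cannot give a p under 0.1. In all 6 libraries the constitutive sites prevailed. Psmb8, the inducible counterpart of Psmb5, stood at 5.63%, 5.17% and 4.41% of the Psmb5 FPKM in LPS and at 3.97%, 5.02% and 4.57% in LPSKD (p = 0.4, exact). Psmb10 stood at 5.04%, 5.43% and 4.51% of Psmb7 against 4.48%, 4.15% and 4.82% (p = 0.2, exact). Psmb9 stood at 0.674%, 0.866% and 1.48% of Psmb6 against 0.943%, 0.984% and 0.489% (p = 0.6, exact), from 17 to 47 fragments of Psmb9 per library, which leaves a wide counting error. The groups overlapped in each of these ratios. The mean of Psme1 and Psme2 was 26.7%, 26% and 26.6% of Psme3 in LPS and 25%, 26.4% and 27.1% in LPSKD (p = 0.8, exact). Psme2b was left out of this ratio, which therefore depends on the uncertain split between Psme2 and Psme2b. After adjustment over the 4 ratios each p was 0.8.

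Of 27 tested genes that belong to or work with the proteasome but carry other symbols, 2 were called, 1 in each direction. This is 7.41%, against 3.23% of all tested genes and 5.51% of those averaging 50 FPKM or more. Zfand2a, a zinc finger protein that is induced by arsenite and binds the proteasome, had 131, 120 and 130 FPKM in LPS and 93.5, 88 and 84.9 in LPSKD. The groups were far apart, and Zfand2a fell by 0.52 on the log2 scale (SE 0.05, adjusted p = 0.00137 from limma), a call kept under all 16 alternatives (highest adjusted p 0.0254). Zfand5, a zinc finger protein that stimulates the proteasome, had 151, 160 and 164 FPKM against 178, 179 and 179. It rose by 0.18 (SE 0.04, adjusted p = 0.0471 from limma), a call lost under 11 of the 16 alternatives (adjusted p 0.0365 to 0.162).

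The other associated genes named here did not pass in the main fit. Nfe2l1, the transcription factor that raises proteasome genes when activity falls short, had 184, 165 and 176 FPKM in LPS and 199, 191 and 197 in LPSKD. The groups were separate, at a log2 fold change of 0.16 (SE 0.05, adjusted p = 0.119 from limma, and 0.0339 with voom on the recovered fragments). Ddi2, the protease that releases it from the membrane, had 10.7, 11.6 and 10.2 FPKM against 10.7, 12.2 and 10.9, with overlapping groups. Pomp, the maturation factor of the core, had 140, 156 and 144 FPKM against 151, 143 and 139, and the ubiquitin receptor Adrm1 had 176, 160 and 171 against 177, 177 and 180. Sem1, a small lid subunit, varied most of these, with 123, 155 and 159 FPKM against 196, 175 and 148 (0.25, SE 0.12, adjusted p = 0.333 from limma). The 2 deubiquitinases that dock on the cap were Uchl5, with 55.6, 58.7 and 60.7 FPKM against 54.4, 54.4 and 52.4, and Usp14, with 135, 151 and 140 against 142, 153 and 148. Uchl5 had separate groups on the lower side (log2 fold change −0.12, 95% interval −0.22 to −0.01) and Usp14 overlapping ones.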

How the data were processed

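The authors deposited FPKM values, 1 per gene and library, without pooling. The submitters' notes list Bowtie 0.12.2, HISAT2 2.0, StringTie 1.3.0 and the builds mm8 and GRCh38.p13 with no role, and which made the table is not given in the sources used here. Library totals and fragment counts were inferred from these values. Each total was searched for as the one at which most genes gave whole fragments. Multiplied by merged coding length (GENCODE M21, GRCm38, plus at most 10 bases) and that total, 97.8% of 16837 genes gave whole fragments (within 0.01) in every library. The search itself aimed at a high share. With totals raised by 0.1%, 1.41% of the 10225 deeper genes did so.

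Groups and replicates came from the labels. Genes averaging 0.5 FPKM or more were fitted with limma 3.58.1 in R 4.3.3 (trended eBayes, no covariates) on log2(FPKM + 0.1), a scale that understates changes of low genes, with Benjamini-Hochberg adjustment. Ratios used exact permutation tests over all 20 assignments of the labels (NumPy 2.4.6). Sequences were compared with Biopython 1.88. On simulated data, limma recovered 18 of 50 genes changed by 0.25 and 40 of 50 changed by 0.5 (log2). It called 8 of 11523 unchanged genes. Every simulated gene had the same spread of 0.05 (natural log) beside counting noise, and the changed genes were drawn from all levels. The real spread differs between genes, so these figures do not give the power or error rate of the present libraries.

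Genes, lists and tests were chosen with earlier results of these data known. Every gene of the set is named. Per-library values are given for called genes, catalytic subunits, activators, Psmf1, assembly factors, genes at 0 and the extreme fold changes of the alpha, beta and cap subunits, and for fixed associated genes.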

Additional observations from a re-analysis of the deposited data

How the results depend on the processing

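Alternatives tried were a pseudocount of 1 or 0.01, a minimum mean FPKM of 1, 0.1 or none, quantile normalization, median centring, eBayes without trend, voom on recovered fragments, the replicate block and the omission of each library. Of 720 values of the 45 tested genes under 16 alternatives, 690 kept their sign, and no reversed value exceeded 0.04 in size. With quantile normalization the log2 fold changes of Psma2, Psmb2, Psmb4, Psmc5 and Psmd6 became −0.04, −0.03, −0.01, −0.02 and −0.01. Without trend, 0 genes of the set were called and 5 had an unadjusted p under 0.05. Without 1 library, 0 to 1 were called, the 0 without replicate 3 of LPS, and 5 to 13 had an unadjusted p under 0.05. The associated genes called numbered 1 with a filter at 0.1, no filter, quantile normalization, no trend, the replicate block, and any 1 library left out. They numbered 3 with voom on recovered fragments. Leaving out 1 library gave ranges of −0.02 to 0.02 for Psma2, −0.02 to 0.06 for Psma6, −0.02 to 0.03 for Psmb2, −0.03 to 0.16 for Psmc3ip, −0.01 to 0.04 for Psmc5, −0.01 to 0.08 for Psmc6, −0.05 to 0.01 for Psmd1, −0.03 to 0.10 for Psmd12, −0.01 to 0.06 for Psmd14, −0.05 to 0.01 for Psmd3, −0.03 to 0.06 for Psmd6, −0.01 to 0.03 for Psme4, −0.03 to 0.04 for Psmf1, 0.00 to 0.13 for Psmg3, −0.03 to 0.25 for Psmg4. It gave −0.06 to 0.04 for Stat3, 0.02 to 0.13 for the median of the assembly factors, −0.01 to 0.04 for that of the cap, 0.05 to 0.10 for that of the core, −0.12 to −0.05 for that of the activators and 0.01 to 0.06 for that of the set, which quantile normalization took to 0.02. For the log2 ratios it gave −0.56 to 0.02 for Psmb9 to Psmb6 and −0.04 to 0.02 for Psme1 plus Psme2 to Psme3. The cause of these differences was not tested. Among promoters of tested genes the motif shares were 3.66% (interferon-stimulated response element), 8.33% (gamma-activated site), 48% (antioxidant response element core), 43.8% (CCAAT), 8.83% (TATAAA) and 1.17% (TCTCGCGAGA). Whether the replicate numbers pair the samples was not settled. Same-numbered libraries correlated at −0.016, −0.004 and −0.043 in their deviations and the others at −0.043 to 0.058, which cannot decide it. With the replicate block, 1 gene of the set was called, 10 had an unadjusted p under 0.05, and the median log2 fold change over the set was 0.05. Among the expressed proteasome genes, the inducible subunits included, depth was lowest for Psmb8 and Psmb9, with at most 98 fragments per library.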
